A study of Mus musculus with 2 samples.

Results

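The stefin A cluster genes and Cstb were measured in single-cell RNA-seq of mouse blood. The members were 6 genes of the 32285 in the count tables, chosen by symbol as Stfa1, Stfa2, Stfa2l1, Cstdc4, Cstdc5 and Cstb. Earlier results of these data were known when they were chosen, among them that Stfa2 and Stfa1 led a neutrophil cluster, so their levels by cell type and cluster are a description. The 2 libraries were made from blood neutrophils of female mice at 7 months of age, 1 from WT mice on the C57BL/6J background and 1 from APP/PS1 mice, with the cells of 3 mice pooled in each. APP/PS1 mice carry mutant human transgenes of the amyloid precursor protein and of presenilin 1, a model of amyloid deposition in the brain, and neither group received a treatment. Neutrophils were enriched by removing other cells after lysis of red cells. With 1 library per genotype, a difference between genotypes cannot be told apart from a difference between libraries, and no test was run.

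The WT library held 17123 cells with 92458623 unique molecular identifiers (UMIs, 1 for each captured RNA molecule), and the APP/PS1 library held 17645 cells with 84870864 UMIs. After the limits on cell quality 14564 and 15208 cells remained. Cells in the clusters named neutrophils numbered 7585 in WT and 9589 in APP/PS1, with a median of 2553 and 2703 UMIs per cell. Among them was a cluster of 3792 cells, over both libraries, led by interferon-induced and platelet genes such as Ifit3 and Itga2b. The libraries also held 5362 and 3599 monocytes or dendritic cells, so the labelled cell type covered only a part of each library. S100a8, an abundant calcium-binding protein of neutrophils, was at 65301 and 52949 CPM in the neutrophils and at 5432 and 4106 CPM in the monocytes or dendritic cells. Levels are given as CPM, the UMIs of a gene relative to all UMIs of the same group of cells on the usual scale. Each UMI counts the 3′ end of a molecule, so CPM of different genes can be compared without a correction for length. Stefin A copies also share sequence, a further limit given below. Intervals are exact at 95% and cover counting error only. Molecules of these genes were concentrated in few cells, which makes the intervals narrower than the true uncertainty.

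Stefins are small inhibitors that stay inside the cell and bind tightly but reversibly to the active site of papain-like cysteine proteases, such as the cathepsins of the lysosome. Mice carry a tandem array of stefin A genes, whereas stefin B is made from a single gene, Cstb, that most tissues express. Neutrophils contain cathepsins beside their serine proteases, and cathepsin C processes those serine proteases in neutrophil precursors.

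The stefin A genes lie on chromosome 16 between positions 36119946 and 36455392 (mm10, GENCODE M21), a stretch of 335 kb. In their order along the chromosome they are Csta1, Stfa2l1, Cstdc4, Csta3, Csta2, Stfa1, Cstdc6, Cstdc5, Stfa2 and Stfa3. Cstb lies apart, on chromosome 10 from 78425669 to 78427622. The sequences just before the starts of the 5 stefin A members show how alike the copies are there. A link between this likeness and the detection of copies in the same cells was not tested. Whether their molecules can be told apart depends on the transcripts, given further below. Each line gives the 100 bases before the RefSeq start on the gene's own strand, 5′ to 3′ (RefSeq, GRCm38.p6). The capitals mark a run of 12 bases that all 5 share. GENCODE M21 places the starts further upstream for Stfa1 (36276951), Cstdc5 (36367748) and Stfa2 (36408457). The lines of Stfa1 and Cstdc5 thus lie inside the GENCODE genes, and that of Stfa2 almost wholly so. The stretches lie at chr16:36156711-36156810 on the plus strand (Stfa2l1), chr16:36184112-36184211 on the plus strand (Cstdc4), chr16:36277048-36277147 on the plus strand (Stfa1), chr16:36367571-36367670 on the minus strand (Cstdc5) and chr16:36408364-36408463 on the minus strand (Stfa2).
Stfa2l1: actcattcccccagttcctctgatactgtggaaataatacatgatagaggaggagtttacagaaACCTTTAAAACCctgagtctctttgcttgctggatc
Cstdc4: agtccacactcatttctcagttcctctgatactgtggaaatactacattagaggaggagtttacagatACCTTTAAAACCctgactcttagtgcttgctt
Stfa1: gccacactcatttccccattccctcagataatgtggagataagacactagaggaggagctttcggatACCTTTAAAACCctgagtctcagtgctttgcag
Cstdc5: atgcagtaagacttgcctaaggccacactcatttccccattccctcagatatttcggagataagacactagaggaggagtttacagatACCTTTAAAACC
Stfa2: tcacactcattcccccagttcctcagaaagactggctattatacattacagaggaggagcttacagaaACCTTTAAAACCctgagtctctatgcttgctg

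Over the 250 bases before the start, the 10 pairs of these genes were between 72.8% and 90.8% identical, with a median of 78.2%. Stfa2l1 and Stfa2 were the most alike pair. Stfa3 of the same array, rare in neutrophils, was between 72% (with Cstdc4) and 85.2% (with Stfa1) identical to the members. Csta3 was between 66.4% (with Cstdc5) and 72.8% (with Stfa1) identical to them. The shared run ACCTTTAAAACC began 36 bases before the start in Stfa2l1, 33 in Stfa1, 32 in Cstdc4 and in Stfa2, and 12 in Cstdc5, whose RefSeq start lies closer to it. On either strand it was found in 11 of 32851 mouse promoters of the same length, or 0.0335%, and Csta3 and Stfa3 of the same array were among them. The run contains TTTAAAA, found in 8.1% of all promoters, while the TATA box letters TATAAA, found in 12.4%, were in none of the 5. The C/EBP letters TTNNGNAA were in all 5 and in 36.8% of promoters. The letters GAGGAA, the core of PU.1 and other ETS sites, were in all 5 and in 23.3% of promoters.

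The transcripts of the genes are alike as well, which limits how well counts of single genes can be separated. The transcripts of Stfa1 and Cstdc5 were 96.8% identical, whereas the median over the 10 pairs was 62.9%. Of all 90-base windows in the last 400 bases of the transcript, 28.3% for Cstdc5, 16.1% for Cstdc4 and 12.5% for Stfa1 also occurred in another gene of the array. For Stfa2l1 and Stfa2 the share was 2.57%, and no window of Cstb was shared. Reads from shared windows cannot be given to 1 gene, so the levels of Stfa1 and Cstdc5 are uncertain. The sum of the 5 stefin A genes is given beside the single genes, but it does not recover shared reads left out of the counts. At 90 bases Cstdc5 shared most windows with Cstdc6, and Cstdc4 with Csta2. Neither Cstdc6 nor Csta2 is in the sum, so it does not settle reads shared with them either. The shares of shared windows differ between copies, which also limits the comparison of their CPM with each other.

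Stfa2l1 and Cstdc4 made up most of the stefin A molecules of neutrophils. In WT neutrophils Stfa2l1 was at 794 CPM (782 to 806, from 17291 UMIs), and in APP/PS1 neutrophils it was at 889 CPM (878 to 900, from 26189 UMIs). Cstdc4 was at 564 CPM (554 to 574) in WT and at 671 CPM (661 to 680) in APP/PS1. The other copies stood well below. Stfa1 was at 90.7 CPM (86.8 to 94.8, from 1976 UMIs) in WT and at 135 CPM (131 to 139, from 3977 UMIs) in APP/PS1. Cstdc5 was at 35.3 CPM (32.9 to 37.9) in WT and at 47.6 CPM (45.1 to 50.1) in APP/PS1. Stfa2 was the rarest, at 9.23 CPM (8.0 to 10.6, from 201 UMIs) in WT and 11.4 CPM (10.2 to 12.6, from 335 UMIs) in APP/PS1. Cstb was at 150 CPM (145 to 155) in WT and at 162 CPM (158 to 167) in APP/PS1, above Stfa1 in both libraries. The order was the same in both libraries, and no neighbours in it had overlapping intervals.

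The stefin A genes differed from Cstb in how their molecules were spread over the neutrophils. A UMI of Stfa2l1 was found in 38.2% of WT and 44.6% of APP/PS1 neutrophils. For Cstb the shares were 30.2% and 33.1%, although the CPM of Stfa2l1 was far higher. A WT neutrophil with any Stfa2l1 held 5.97 UMIs of it on average, and one with any Cstb held 1.43 UMIs. In APP/PS1 neutrophils these means were 6.12 and 1.51. Cells with at least 5 UMIs of a gene, called high for that gene from here on, held 80.9% of the Stfa2l1 molecules of WT neutrophils but 4.52% of the Cstb molecules. In APP/PS1 neutrophils they held 81.3% and 7.76%.

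The rarer copies were concentrated in still fewer cells. Stfa1 was found in 4.21% of WT and 6.40% of APP/PS1 neutrophils, yet a positive cell held 6.19 and 6.48 UMIs on average, as many as for Stfa2l1. Of its molecules 82.4% in WT and 82.9% in APP/PS1 lay in high cells, which numbered 135 and 255. The top 48 WT and 91 APP/PS1 neutrophils held 50% of all Stfa1 molecules, and the fullest cells held 66 and 69 UMIs. Cstdc5 was high in 38 WT and 72 APP/PS1 neutrophils, which held 73.9% and 68.8% of its molecules, with up to 77 and 90 in a cell. Stfa2 was high in 13 and 17 neutrophils. Cstb never passed 11 UMIs in a WT cell or 16 in an APP/PS1 cell, and its molecules needed 665 and 898 cells to reach 50%.

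**Figure D1:**
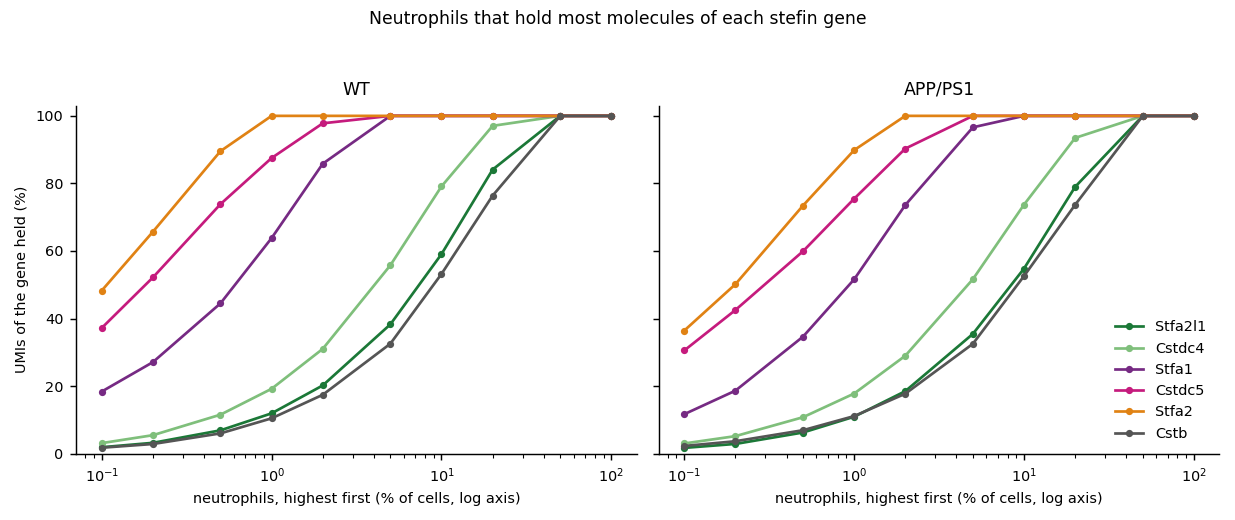
Share of the UMIs of each stefin gene (y axis, percent) held by the neutrophils with the most UMIs of it (x axis, percent of neutrophils, log axis), for WT on the left and APP/PS1 on the right. The lines of Stfa2, Cstdc5 and Stfa1 rise at the far left, where few cells hold most molecules, while those of Cstdc4, Stfa2l1 and Cstb rise later.

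This unevenness was large beside that of other genes. The variance of the UMI count over WT neutrophils was 17.3 times its mean for Stfa1, 21.1 times for Cstdc5, 12.9 times for Cstdc4, 9.08 times for Stfa2l1 and 8.21 times for Stfa2. A ratio of 1 would be counting error alone in cells of equal depth. In APP/PS1 neutrophils the ratios were 16.5, 20.3, 14.2, 9.26 and 7.59 in the same order of genes. Among the 6147 genes that reached 200 UMIs in a library, the 5 stefin A genes ranked between 16 and 36 in WT and between 19 and 46 in APP/PS1. Among genes whose mean lay within 2-fold of their own they ranked between 2 and 9, where the median ratio of such genes was between 1.08 and 1.86. For Cstb the ratio was 1.48 in WT and 1.71 in APP/PS1, with ranks of 502 and 379. The 10 genes with the highest ratios included immunoglobulin and haemoglobin genes such as Igkc and Hbb-bs, the secondary granule genes Ngp, Camp and Ltf, and S100a9 and S100a8, which mature neutrophils make in large amounts.

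High cells were found for different copies in partly different cells. Neutrophils high for at least 1 stefin A gene numbered 1836 of 7585 in WT, or 24.2%, and 2721 of 9589 in APP/PS1, or 28.4%. Most of them were high for 1 gene only, namely 17.1% of all WT neutrophils and 19.6% of all APP/PS1 neutrophils. Cells high for 2 genes made up 6.45% and 7.61%, and cells high for 3 made up 0.541% and 1.10%. In 44.2% of the WT cells high for any copy, and in 40.6% of the APP/PS1 cells, a single copy gave at least 90% of the stefin A molecules.

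Cells with 1 copy nonetheless held others more often than the remaining neutrophils. Of the 135 WT neutrophils high for Stfa1, 46.7% were also high for Stfa2l1, against 17.7% of the remaining neutrophils. For Cstdc4 the shares were 35.6% and 10.97%, and for Cstdc5 they were 4.44% and 0.430%. In APP/PS1 the 255 cells high for Stfa1 were high for Stfa2l1 in 49.0%, against 20.5% of the remaining neutrophils. Cells high for Stfa1 were somewhat deeper, with a median of 3013 UMIs against 2546 in WT and 3115 against 2691 in APP/PS1. Of them, 0 in WT and 2.35% in APP/PS1 were called doublets, droplets that may hold more than 1 cell, against 0.215% and 1.72% of the remaining neutrophils.

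The association held when each neutrophil was thinned to 1000 UMIs. All 10 pairs of stefin A genes were found together more often than expected from their separate shares, with odds ratios of 2.70 to 54.6 in WT and 2.51 to 11.6 in APP/PS1. The medians were 5.19 and 4.52. The highest ratio in both libraries was that of Cstdc5 and Stfa2, from 15 thinned WT cells with both where 0.511 would be expected and from 11 APP/PS1 cells where 1.20 would be expected. For the frequent pair Stfa2l1 and Cstdc4 the ratios were 5.32 and 4.48, from 833 and 1286 cells with both. Cstb kept no such company, as its odds ratios with the 5 copies lay between 0.811 and 0.938 in WT and between 0.411 and 1.07 in APP/PS1. Cells differ in type within the neutrophils and copies share sequence, so these ratios are a description.

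Most cells high for Stfa1 or for Cstdc5 had no UMI of the other, although their transcripts are nearly identical. Of the WT neutrophils high for Cstdc5, 76.3% had no UMI of Stfa1, and of those high for Stfa1, 85.2% had no UMI of Cstdc5. In APP/PS1 the shares were 68.1% and 85.1%. Summed over cells high for Stfa1, Cstdc5 molecules came to 11.2% of the Stfa1 molecules in WT and to 6.64% in APP/PS1.

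Compared with WT neutrophils, APP/PS1 neutrophils had higher levels of all 6 genes, although Stfa2 was lower in cells thinned to 1000 UMIs, with a log2 ratio of -0.11. The log2 ratio of CPM, APP/PS1 over WT, was 0.57 for Stfa1 (0.49 to 0.65), 0.43 for Cstdc5 (0.30 to 0.56) and 0.30 for Stfa2 (0.04 to 0.56). It was 0.25 for Cstdc4 (0.22 to 0.28), 0.16 for Stfa2l1 (0.13 to 0.19) and 0.11 for Cstb (0.05 to 0.18). Only Stfa1 passed a log2 ratio of 0.5, the fold of the study, which was 1 of 6 members. Of 6147 genes tested, 3.4% lay above 0.5 and 2.46% lay below -0.5, and the median of all genes was 0.06, against 0.28 for the members. The 5 stefin A genes together went from 1493 to 1753 CPM, a log2 ratio of 0.23 (0.21 to 0.25). Over the same cells the log2 ratio of S100a8 was -0.30.

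A larger share of APP/PS1 than of WT neutrophils held Stfa2l1, Cstdc4, Stfa1 or Cstdc5. In cells thinned to 1000 UMIs, Stfa1 was found in 3.02% (2.65 to 3.43) of WT and 4.29% (3.89 to 4.71) of APP/PS1 neutrophils. Stfa2l1 was found in 29.2% (28.1 to 30.2) and 33.5% (32.5 to 34.4), and Cstdc4 in 18.2% (17.3 to 19.1) and 22.1% (21.2 to 22.9). The share with Cstb was 13.6% (12.8 to 14.4) and 14.3% (13.6 to 15.03), with overlapping intervals. Cells high for Stfa1 made up 1.78% (1.49 to 2.10) of WT and 2.66% (2.35 to 3.0) of APP/PS1 neutrophils. The mean over positive cells, without thinning, was 6.53 and 6.70 UMIs for Cstdc4. It was lower in APP/PS1 for Cstdc5, at 4.27 against 4.55, although 328 of 9589 APP/PS1 and 169 of 7585 WT neutrophils had a UMI. For Stfa2 it was 2.58 against 3.41, and the thinned share, 0.647% (0.496 to 0.828) in APP/PS1 and 0.527% (0.377 to 0.717) in WT, had overlapping intervals.

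**Figure D2:**
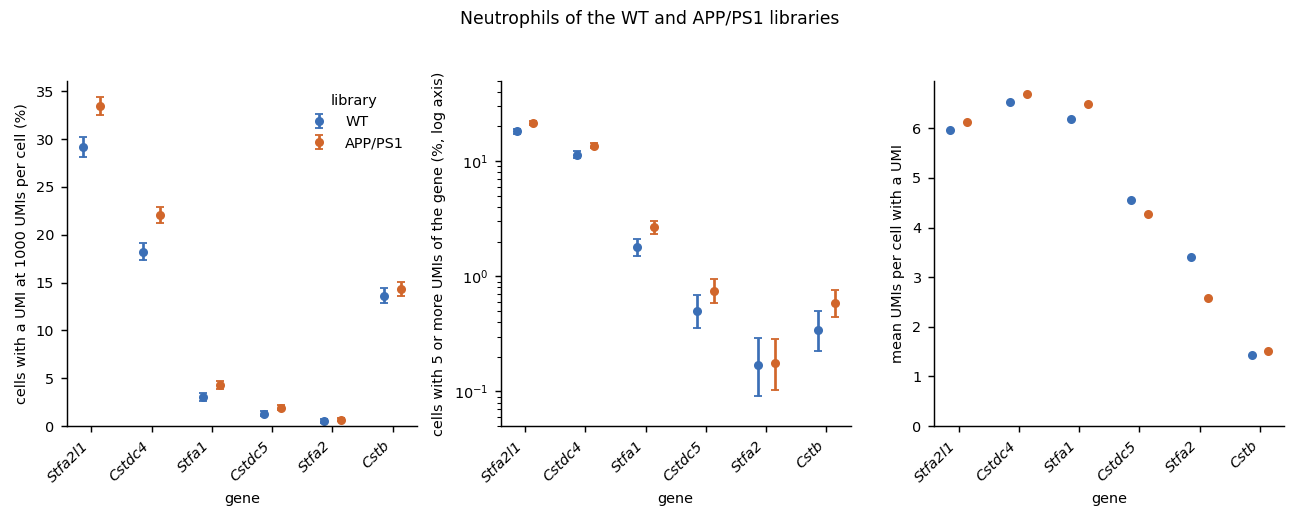
Stefin genes in neutrophils of the WT (blue) and APP/PS1 (orange) libraries: percent of cells with a UMI after thinning to 1000 UMIs (left), percent of cells with at least 5 UMIs on a log axis (middle) and mean UMIs per cell with a UMI (right). Bars are exact 95% intervals of the shares. The shares of Stfa2l1, Cstdc4 and Stfa1 are higher in APP/PS1 without overlap. The means per positive cell are slightly higher in APP/PS1 for these 3 genes and for Cstb, and lower for Cstdc5 and Stfa2.

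Which member passed 0.5 depended on the cells taken and their weight. The ratio of Stfa1 was 0.47 without the percentile limits on cells, 0.29 with equal weight to each neutrophil cluster and 0.27 in neutrophils with no UMI of Pf4, Ppbp, Hba-a1 or Cd74, markers of platelets, red cells and antigen-presenting cells. Those were 1711 WT and 2697 APP/PS1 cells, in which the ratio of Cstdc5 was 0.04, that of Stfa2 just past the fold at 0.505 and that of the 5 genes together 0.18. With equal weight to each cluster the ratio of Cstdc5 was 0.76, so that Cstdc5 passed 0.5 there and Stfa1 did not. The secondary granule cluster described below, with 387 cells, had the same weight there as the larger clusters. In it 1 APP/PS1 cell held 90 of 132 Cstdc5 UMIs, and 2 WT cells held at least 50% of 154 Stfa1 UMIs. The part of other cells' RNA in the differences was not tested.

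The neutrophils fell into 6 clusters, made without the stefin and cystatin genes and without genes that differed between the libraries. Stfa2, Stfa1, Cdc25b, Asb7 and Retnlg were the leading genes of cluster 0, with 5642 cells. Those of cluster 1, with 4222 cells, were Clec4n, Dusp2 and Icam1 among others. Cluster 2 (3477 cells) was led by interferon-induced genes, cluster 3 (3338 cells) by platelet genes, cluster 4 (387 cells) by the secondary granule genes Camp, Ltf and Ngp, and cluster 5 (108 cells) by mitochondrial genes. All 5 stefin A genes were highest in cluster 0 among the 4 clusters with over 1000 cells, except Cstdc5 in WT.

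In cluster 0 Stfa1 was at 118 CPM for WT and 219 CPM for APP/PS1, and in cluster 1 at 72.7 and 85.1 CPM. Stfa2l1 was at 982 and 1086 CPM in cluster 0, against 594 and 772 CPM in cluster 1. Cstdc4 was at 727 and 925 CPM in cluster 0, against 399 and 431 CPM in cluster 1. Clusters 2 and 3 lay between for both genes in both libraries. For Stfa2, cluster 0 had 14.9 and 21.01 CPM and cluster 1 had 1.90 and 4.97 CPM, from 6 and 32 UMIs. Cstb ran the other way, with 134 and 155 CPM in cluster 0 and 196 and 198 CPM in cluster 1.

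Taking both libraries, the log2 ratio of cluster 0 to the other neutrophils was 1.33 for Stfa2, 0.86 for Stfa1, 0.63 for Cstdc4, 0.62 for Cstdc5, 0.43 for Stfa2l1 and -0.17 for Cstb. Hence 4 of 6 members lay above 0.5, where 0.319% of 6590 genes did. The ratio of cluster 1 was -1.59 for Stfa2, -1.36 for Cstdc5, -0.68 for Cstdc4, -0.62 for Stfa1, -0.30 for Stfa2l1 and 0.42 for Cstb. Below -0.5 lay 4 of 6 members and 5.4% of 6720 genes. The alarmin S100a8 had the same direction, with 73847 CPM in cluster 0 and 29951 CPM in cluster 1. Stfa2 and Stfa1 were chosen with their place in this cluster known, so the counts are a description.

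**Figure D3:**
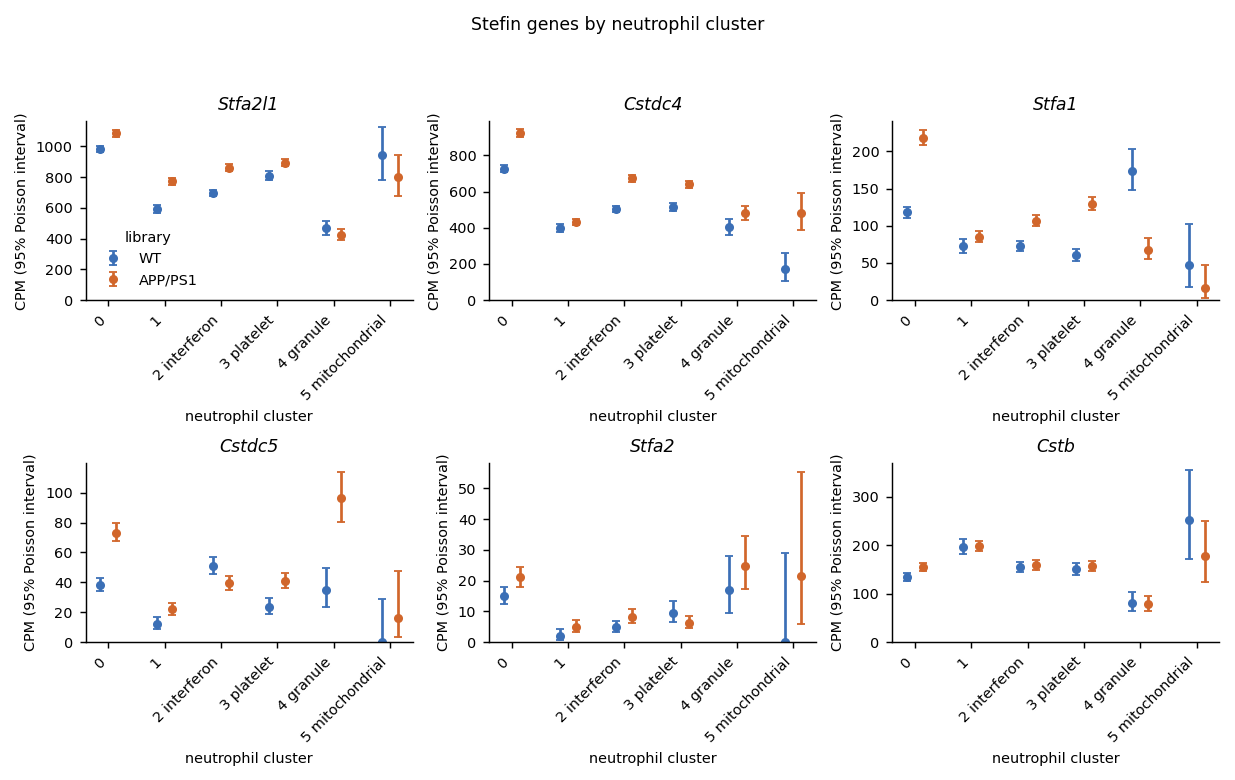
CPM of each stefin gene by neutrophil cluster (x axis, clusters 0 to 5) in the WT (blue) and APP/PS1 (orange) libraries, with exact 95% Poisson intervals. The stefin A genes are high in cluster 0 and low in cluster 1, Cstb is highest in cluster 1 among the larger clusters, and cluster 5, with 46 and 62 cells, has wide intervals.

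In the secondary granule cluster 4, whose genes are made in the bone marrow before neutrophils are released, the members differed in direction. Against the other neutrophils the log2 ratio was 1.13 for Stfa2 and 0.82 for Cstdc5, but -0.97 for Stfa2l1 and -1.01 for Cstb. That is 2 of 6 members above 0.5, as 13.4% of 7041 genes were, and 2 of 6 below -0.5, as 38.7% were. The median log2 ratio of all genes in this cluster was -0.31, and the count of members below -0.5 was near the share of all genes. Stfa2l1 was at 469 CPM for WT and 426 CPM for APP/PS1, from 54 and 72 cells with a UMI. Of those, 10 and 13 held at least 50% of its UMIs. Cstb was at 81.4 and 78.7 CPM, from 58 and 78 cells. The high values rest on fewer cells, as Cstdc5 had a UMI in 5 WT and 8 APP/PS1 cells and Stfa2 in 3 and 5. Of the 132 Cstdc5 UMIs of APP/PS1 cells in cluster 4, 90 lay in 1 cell, and WT cells held 31 UMIs. Stfa1 was at 174 CPM for WT and 67.8 CPM for APP/PS1 in this cluster, but the 154 WT UMIs came from 6 cells, of which 2 held at least 50%, and of the 93 APP/PS1 UMIs 50 came from 1 cell.

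Within clusters the higher levels in APP/PS1 were seen again for the frequent copies. For Stfa2l1 the log2 ratio, APP/PS1 over WT, was 0.14, 0.38, 0.31 and 0.14 in clusters 0 to 3, and it was -0.14 (-0.32 to 0.05) in cluster 4. For Cstdc4 it was 0.35, 0.11, 0.42, 0.31 and 0.26 in clusters 0 to 4. Stfa1 had ratios of 0.89, 0.23, 0.56 and 1.10 in clusters 0 to 3. Cstdc5 had ratios of 0.94, 0.86 and 0.78 in clusters 0, 1 and 3, but -0.37 (-0.61 to -0.13) in cluster 2, where 3 of the WT cells held at least 50% of 318 UMIs. For Cstb the ratio was 0.20 (0.08 to 0.32) in cluster 0, and between -0.05 and 0.06 in clusters 1 to 4, with intervals that include 0.

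In monocytes or dendritic cells the 5 stefin A genes lay below their neutrophil level, and Cstb lay close to its own. In monocytes or dendritic cells Stfa2l1 was at 69.2 CPM for WT and 73.8 CPM for APP/PS1, which is 8.72% and 8.30% of the neutrophil level. The 5 genes lay between 6.57% and 9.97% of their neutrophil level in WT and between 8.20% and 12.1% in APP/PS1. S100a8, which neutrophils make in large amounts, lay at 8.32% and 7.75% of its neutrophil level in the same cells. Hence 5 of 6 members were below the neutrophil level by over 0.5 on the log2 scale over both libraries, where 17.7% of 9502 genes were lower and 60.2% were higher. Cstb was at 155 CPM for WT and 146 CPM for APP/PS1 monocytes or dendritic cells, or 103.3% and 90.1% of the neutrophil level.

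The stefin A molecules in the monocyte clusters lay mostly in few cells. Cells high for any of the 5 genes numbered 224 in WT, or 4.18% of these cells, and 151 in APP/PS1, or 4.20%. They held 78.7% and 72.0% of the stefin A molecules found there. Of them, 83.9% and 72.8% were called doublets, against 11.4% and 9.05% of the other cells in these clusters, and they held 27831 and 21108 CPM of S100a8, against 3972 and 3064 CPM. In the other cells of these clusters the 5 genes together came to 30.4 CPM for WT and 43.9 CPM for APP/PS1. With called doublets removed before clustering, they came to 73.2 and 77.9 CPM, and without the percentile limits to 19.9 and 23.4 CPM in the clusters then named monocytes or dendritic cells, where S100a8 was at 989 and 827 CPM.

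Cstb differed between the monocyte clusters instead. The cluster led by Kcne3, Vcan and Fn1 held 213 CPM (206 to 219) in WT and 191 CPM (184 to 199) in APP/PS1, above neutrophils. The cluster led by Cd300e held 70.7 CPM (66.4 to 75.3) and 75.4 CPM (69.7 to 81.4). A UMI of Cstb was found in 74.2% of WT cells of the former, which had a median of 8183 UMIs per cell, and in 26.1% of the latter, which had a median of 4277. After thinning to 1000 UMIs the shares were 18.4% and 5.80%.

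T cells, which should lack stefin A, give a background for these shares that includes doublets, as 19.0% of WT and 10.3% of APP/PS1 T cells were called so. Stfa2l1 was found in 2.58% of WT and 2.95% of APP/PS1 T cells thinned to 1000 UMIs, and in 7.73% and 7.20% before thinning, at medians of 4398 and 3574.5 UMIs. S100a8 was found in 60.7% and 57.8% of the same thinned cells. Of the Stfa2l1 UMIs in T cells, 70.2% in WT and 75.5% in APP/PS1 lay in 6 and 10 high cells. The thinned share of Stfa2l1 in monocytes or dendritic cells was 3.90% (3.40 to 4.45) and 4.28% (3.64 to 4.99), with intervals that overlap those of T cells, 1.29 to 4.56 and 1.70 to 4.75. Stfa2 had 0 UMIs in the 427 WT and 542 APP/PS1 T cells, which allows up to 1.43 and 1.31 CPM (3 UMIs of the total). Cstb was at 71.9 and 70.2 CPM in T cells, at 80.3 and 78.6 CPM in NK cells and at 58.5 and 55.8 CPM in B cells, so its levels in lymphocytes were between 34.4% and 53.4% of those in neutrophils of the same library.

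A high value of Cstdc5 in NK cells came from 1 cell. It was at 47.1 CPM in APP/PS1 and 2.40 CPM in WT, but 120 of the 136 APP/PS1 UMIs lay in 1 of 764 cells.

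**Figure D4:**
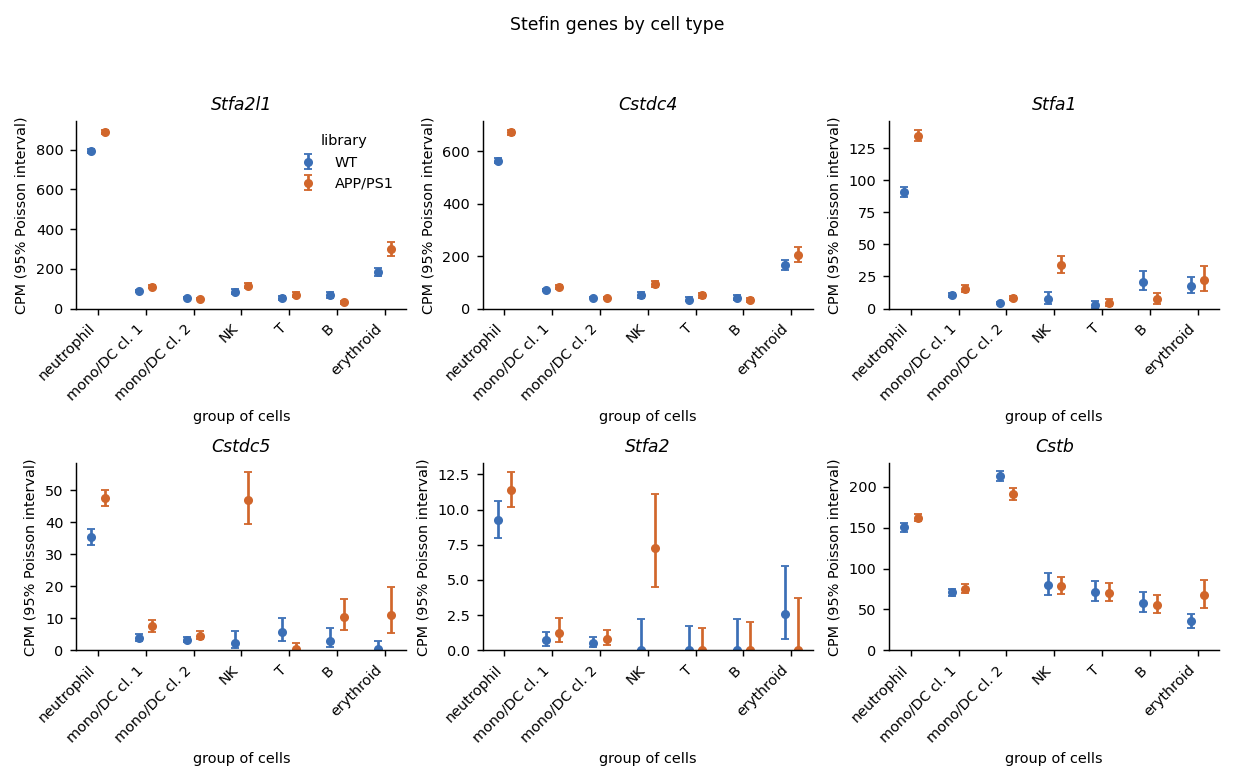
CPM of each stefin gene by group of cells (x axis) in the WT (blue) and APP/PS1 (orange) libraries, with exact 95% Poisson intervals, where cl. 1 and cl. 2 are the monocyte or dendritic cell clusters led by Cd300e and by Kcne3, Vcan and Fn1. Among the groups shown, Stfa2l1, Cstdc4, Stfa1 and Stfa2 are highest in neutrophils, NK cells of APP/PS1 match the neutrophils for Cstdc5, and Cstb is highest in cl. 2.

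Erythroid cells held 185 and 298 CPM of Stfa2l1, but 44.6% and 57.1% of them were called doublets.

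Most Cstdc5 molecules of the tables lay in a few cells that also held keratin RNA. When all cells were clustered without percentile limits, 28 cells, 13 from WT and 15 from APP/PS1, formed a cluster led by Krt6b, Mal, Krt13 and Sprr2f, genes of stratified epithelium. Only 9 of them lay inside the limits. Inside the limits, cells led by Mal, Krt13 and Csta1 formed an unnamed cluster of 114 WT and 208 APP/PS1 cells, of which 33.3% and 22.1% were called doublets. There Cstdc5 was at 1930 CPM for WT and 429.5 CPM for APP/PS1 but was found in 7.02% and 3.85% of cells, and the 5 stefin A genes together lay at 164% and 70.9% of the neutrophil level. Cstdc5 was at 11481 CPM in the WT cells and 13784 CPM in the APP/PS1 cells of this cluster, and all 28 cells held it. They held 6466 of the 10056 Cstdc5 UMIs in the tables, or 64.3%. The other stefin of this cluster was Csta1, at 8960 and 7491 CPM, against 1.24 and 1.70 CPM in neutrophils, and the 28 cells held 95.3% of its molecules. Stefin A is known as a part of the cornified layer of skin and mouth.

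Cstb was at 1222 CPM in the WT and 1795 CPM in the APP/PS1 cells of the keratin cluster, above its level in each blood cell type given here. Stfa1 was at 71.9 and 94.5 CPM, close to its level in neutrophils, and Stfa2 had 0 UMIs, which allows at most 5.98 CPM over the 28 cells. So 43 molecules counted as Stfa1 stood beside 6466 counted as Cstdc5 in cells of the same cluster, despite the near-identical transcripts. Stfa2l1 and Cstdc4, the main copies of neutrophils, had 34 and 20 UMIs there, from 6 and 2 cells.

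**Figure D5:**
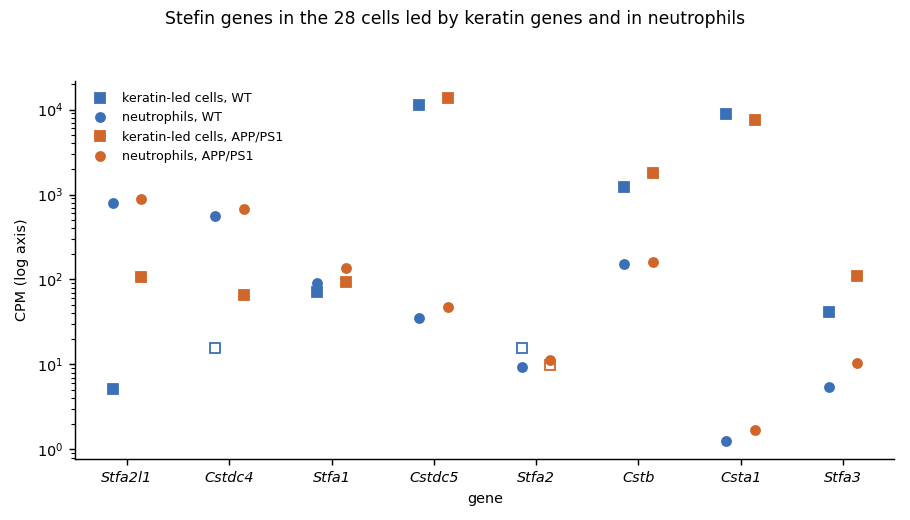
CPM on a log axis of 8 stefin genes in the 28 cells of the keratin-led cluster (squares) and in neutrophils (circles), for WT (blue) and APP/PS1 (orange). Open squares stand at the limit that 0 UMIs allow (3 UMIs of the total). Cstdc5, Csta1 and Cstb lie far above neutrophils in these cells, and Stfa2l1 and Cstdc4 far below.

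The other genes of the array were rare in neutrophils. Stfa3 was at 5.46 CPM for WT and 10.2 CPM for APP/PS1, a log2 ratio of 0.91 (0.60 to 1.23) from 119 and 302 UMIs, and Csta3 at 8.54 and 10.1 CPM. In the secondary granule cluster Stfa3 was at 11.3 CPM for WT and 43.7 CPM for APP/PS1, and the high values of Stfa2 and Cstdc5 there rest on few cells. Csta3 had 1 and 0 UMIs in that cluster. Csta2 and Cstdc6 stayed under 200 UMIs in each library.

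The cathepsins Ctsb, Ctss and Ctsc were distributed unlike the stefin A genes. The list of cysteine cathepsins and legumain had 11 genes, of which 9 had at least 200 UMIs in a library. Levels of Ctsh, Ctso, Ctsw, Ctsz and Lgmn, which are among them, are not given here. Ctsb, a lysosomal endopeptidase and exopeptidase, was at 139 and 118 CPM in neutrophils and at 1124 and 1137 CPM in monocytes or dendritic cells. Ctss, known for cutting the invariant chain of MHC class II, was at 91.5 and 92.6 CPM in neutrophils against 1287 and 1242 CPM. Ctsc, which activates granule serine proteases, was at 17.0 and 12.1 CPM against 377 and 337 CPM. Ctsl went the other way, at 94.3 and 85.7 CPM in neutrophils and 50.3 and 42.9 CPM in monocytes or dendritic cells. The 6 genes of this list with 200 UMIs in neutrophils had log2 ratios, APP/PS1 over WT, between -0.50 and 0.34 with a median of -0.19. Of them, 0 of 6 passed 0.5 in either direction. Among the 14 secreted cystatins only Cst3 was frequent in neutrophils, at 941 CPM for WT and 1315 CPM for APP/PS1, a log2 ratio of 0.48 (0.46 to 0.51), while 8 had no UMI in any kept cell.

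The 5 nearest genes on each side of the array that reached 200 UMIs in neutrophils did not share 1 direction between the genotypes. On the side of Csta1, Fam162a, Parp9, Dtx3l and Parp14 had log2 ratios of 0.56, 0.28, 0.29 and 0.38 in neutrophils, and Kpna1 had 0.08. On the side of Stfa3, Cd86 and Slc15a2 had ratios of -0.23 and -1.61, Golgb1 and Hcls1 had -0.12 and -0.03, and Ndufb4, 1192 kb away, had 0.29. For Cstb, the 5 nearest genes on each side with at least 200 UMIs in a library over neutrophils, which on one side began 1242 kb away, lay between -0.02 and 0.20.

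Over 26 groups of cells, the genes most like the members in log2(CPM + 1) were found by Pearson's r. For Stfa2l1 they were Amer2 (r = 0.987), Il1f9, Lrg1, Rnf11 and Carhsp1, and for Cstdc4 Amer2 (r = 0.967), Mgam, Lrg1, Chil1 and Rnf11. Stfa2 was most like Asb7 (r = 0.887), Ncam1, Tmem120a, Ly6g and Wfdc21, and Stfa1 most like E030030I06Rik (r = 0.897), Txnl4b, Lhx1, Bmpr1a and 9830107B12Rik. Cstdc5 was most like Slc39a4 (r = 0.848), and Cstb most like Timm10b (r = 0.886). The groups include the unnamed cluster led by Mal, Krt13 and Csta1, where Cstdc5 lay far above its level in the other groups. Between members the highest r was that of Stfa2l1 and Cstdc4, 0.982 over the 26 groups and 0.764 over the 11 groups of neutrophils alone, while that of Cstb and Stfa2 was 0.349 and -0.609. Groups of a library share its depth and free RNA, so these values are descriptions.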

How the data were processed

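Blood neutrophils of 1 WT and 1 APP/PS1 pool were profiled with the 10x Genomics 3′ v3 chemistry. The authors deposited unnormalized counts of UMIs for each gene in every barcode that Cell Ranger 5.0.0 called a cell, with mm10 as the reference (submitters' processing notes). Replicate libraries were not given, and 83 cell barcodes occurred in both libraries.

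The members, gene lists and comparisons were chosen with earlier results of these data known. Cells below the 5th or above the 95th percentile of their library, in genes or in UMIs, or over 10% mitochondrial UMIs, were removed, after the study's methods. Cells were clustered with Seurat 5.3.0 in R 4.3.3 (2000 variable features over both libraries together, 15 principal components). Neutrophils were clustered again with 2000 features chosen per library and anchors between libraries, at the lowest resolution with at least 6 clusters, 0.3. Clusters were named from marker lists, by a scoring rule set after the clusters were seen. A cluster that scored as platelets was counted as neutrophils if its S100a8 level was high enough beside that of the largest neutrophil cluster. A cluster with Krt13 among its leading genes was left unnamed. Members and listed cystatins stayed out of the features of both clusterings. Genes over 0.5 apart between libraries also stayed out of the neutrophil features, which left 1777. Doublets were called with Scrublet (scanpy 1.11.5) at 1 threshold of 0.217 for both libraries, since the APP/PS1 library's own threshold of 0.728 called 0 cells, and were kept. They came to 9.04% of WT and 7.29% of APP/PS1 cells.

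UMIs were summed per library and group of cells. Intervals are exact Poisson for CPM, exact conditional binomial for ratios and Clopper-Pearson for shares (scipy 1.17.1, 95%). Genes needed 200 UMIs in a library to enter a count of genes past a log2 ratio of 0.5. On Poisson counts simulated for 6147 genes in the neutrophil comparison of the libraries, intervals covered 95.0% of true values. All 200 genes given a change larger than the fold passed it. The intervals assume such counts, so this checks the calculation only and not the coverage for the uneven counts of these genes. Genes that could be named were the members, listed genes with 200 UMIs, 5 neighbours on each side of each locus, the 5 most similar genes of a member, S100a8, S100a9 and leading genes of clusters. Not all of them are named in the text. Alternatives were TMM library sizes (edgeR 4.0.16), other filters, thinning and clusterings, and a limit of 10 UMIs per gene and cell, added after seeing the data.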

Additional observations from a re-analysis of the deposited data

Results flagged for a closer look

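With 1 library per genotype none of the following differences was tested. Outside the comparisons of blood cells, the 28 cells of the keratin-led cluster held 12890 CPM of Cstdc5, 8062 CPM of Csta1 and 1573 CPM of Cstb over both libraries, above the limit that 0 UMIs allow, 5.98 CPM. The log2 ratio of Stfa1, APP/PS1 over WT, was -1.36 in the secondary granule cluster of neutrophils and 1.10 in the cluster led by platelet genes. In the former it rests on 6 WT and 13 APP/PS1 cells with a UMI. The ratio of Cstdc5 was -0.37 in the interferon cluster and 1.46 in the secondary granule cluster, where 1 APP/PS1 cell held 90 of 132 UMIs. The ratio of Cstb was -0.088 in monocytes or dendritic cells and 0.11 in neutrophils.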

How the results depend on the processing

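No paired analysis was possible because each genotype had 1 library and the labels give no replicate numbers. The log2 ratio of the 5 stefin A genes, APP/PS1 over WT in neutrophils, 0.23 in the report, was 0.19 with TMM library sizes, 0.20 with library sizes that left out genes over 1% of UMIs, 0.20 in thinned cells, 0.26 with equal weight to each cluster, 0.18 in cells with no UMI of the 4 marker genes and 0.19 with at most 10 UMIs per gene and cell. It stayed above 0 in all 9 alternatives, as did that of Cstb (0.06 to 0.15). Stfa1 ranged from 0.27 to 0.58 and was past 0.5 in 6 of 9. Cstdc5 passed 0.5 with equal weight to each cluster (0.76) and Stfa2 in cells with no UMI of the 4 marker genes (0.505). Stfa2 turned to -0.11 in thinned cells. The ratio of neutrophils to monocytes or dendritic cells for the 5 genes, 3.56 over both libraries, was 6.26 without percentile limits, 4.45 without called doublets, 3.81 in thinned cells, 3.83 as a mean over cells and 3.48 with at most 10 UMIs per gene and cell. For Cstb it was 0.05, and -0.014 without percentile limits, 0.33 in thinned cells and 0.30 as a mean over cells. The range of the 5 genes between neutrophil clusters of at least 200 cells, 0.94, was 1.26 without integration, 0.73 with 30 principal components and 0.69 with 8 clusters. With a minimum of 20 UMIs in place of 200, 846 genes lay above 0.5 and 509 below -0.5, against 209 and 151. The cause of these shifts was not tested. TMM moved all ratios by -0.05. A few cells decide some values, among them those of Stfa1 in the secondary granule cluster and of Cstdc5 in that cluster, in WT cells of the interferon cluster and in NK cells.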
